A study of Mus musculus with 4 samples.

Results

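The genes described are 10 markers of liver sinusoidal endothelial cells, Stab1, Stab2, Clec4g, Lyve1, Fcgr2b, Oit3, Mrc1, Pecam1, Kdr and Eng. They were chosen by gene name, and all 10 were found among the 8797 genes listed for the liver mRNA of each mouse. Their expression was given in FPKM, the number of mapped fragments scaled to transcript length and to library size, and 2 of the 10 also had a B6-allele frequency, which is the B6 share, from 0 to 1, of the reads that could be told apart by strain.

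The livers came from 4 female F1 hybrids aged 5 months. B6 is the common laboratory strain and MSM an inbred strain derived from Japanese wild mice, so every F1 mouse carried a chromosome set of each strain and the alleles were told apart at bases that differ between them. The crosses are named with the mother first, so that MSM/B6 denotes the 2 mice born to MSM mothers and B6/MSM the 2 mice born to B6 mothers, the father being of the other strain. No mouse carried an engineered allele or received a treatment according to the labels, and inbred B6 or MSM livers were not part of the mRNA data. Whole liver was used rather than sorted cells, so the values are levels in bulk tissue, where fewer endothelial cells and less RNA per endothelial cell cannot be told apart. The sources do not say whether the mice of a cross were littermates, so the p-values measure only the spread between these 4 mice.

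Sinusoidal endothelial cells line the capillaries of the liver. They lack a continuous basement membrane, carry open pores called fenestrae, and take up macromolecules from the blood through a set of scavenger and lectin receptors that few other endothelia express. They also receive VEGF and BMP signals from neighbouring cells and send signals back to hepatocytes. The markers were therefore grouped into uptake receptors (Stab1, Stab2, Mrc1, Lyve1, Fcgr2b and Clec4g), the adhesion molecule Pecam1, signalling receptors (Kdr and Eng), and Oit3, which encodes a protein with a zona pellucida domain. Several of these genes are not restricted to sinusoidal endothelium. Mrc1 and Fcgr2b are also expressed by macrophages, Lyve1 by lymphatic vessels, and Pecam1, Kdr and Eng by endothelium in general. The genes lie at chr14:31139013-31168641 (Stab1), chr10:86841198-87008025 (Stab2), chr8:3707064-3720651 (Clec4g), chr1:170958617-170976547 (Fcgr2b), chr10:59422958-59441778 (Oit3) and chr5:75932827-75978458 (Kdr) on the minus strand, and at chr2:14229392-14332057 (Mrc1) and chr2:32646595-32682669 (Eng) on the plus strand of mm10, as annotated in GENCODE M21, and Lyve1 and Pecam1 are placed beside their allele frequencies.

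Promoter sequence is shown for 4 of the markers, Stab1 and Kdr, in which both B6/MSM mice were higher, and Clec4g and Fcgr2b, in which the crosses overlapped. Each run is the 100 bases directly upstream of an annotated start, written 5′ to 3′ on the strand of the gene. That start was the most upstream GENCODE M21 exon start in the RefSeq promoter window that left 100 bases before it. Where no exon began upstream of the RefSeq start, the RefSeq start was used. The sequences are the RefSeq reference of GRCm38.p6, that is the B6 sequence, and they do not show the MSM allele. Capitals mark GGAA or its reverse complement TTCC, the core letters recognised by ETS factors, a transcription factor family active in endothelium. The windows lie on the minus strand at chr14:31168642-31168741 (Stab1), chr5:75978459-75978558 (Kdr), chr8:3720652-3720751 (Clec4g) and chr1:170976128-170976227 (Fcgr2b). The Fcgr2b window lies inside the annotated gene, whose 5′ end is further upstream, at position 170976547.
Stab1: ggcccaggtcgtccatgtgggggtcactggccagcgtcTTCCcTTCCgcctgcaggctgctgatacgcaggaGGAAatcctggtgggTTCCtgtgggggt
Kdr: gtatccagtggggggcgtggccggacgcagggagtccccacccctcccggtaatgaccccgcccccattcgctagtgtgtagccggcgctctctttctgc
Clec4g: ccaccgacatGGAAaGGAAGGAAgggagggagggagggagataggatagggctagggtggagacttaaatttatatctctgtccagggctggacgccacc
Fcgr2b: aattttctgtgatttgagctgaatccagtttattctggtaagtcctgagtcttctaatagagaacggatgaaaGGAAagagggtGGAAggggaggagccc
The core occurred 4 times in the Stab1 window, 3 times in Clec4g, 2 times in Fcgr2b and 0 times in Kdr. Among the other markers with a promoter entry it occurred 1 time in Stab2, 2 times in Mrc1 and 2 times in Eng. At least 1 copy was present in 66.8% of 32851 promoters, taken as the 100 bases before each RefSeq start, and in 6 of the 7 marker windows. GATAA or its reverse complement TTATC, a form of the letters that GATA factors recognise, was found in 0 of the 7 windows and in 8.55% of all promoters. Other forms were not searched, among them GATAG, which the Clec4g window holds, so the count does not show that GATA sites are absent. TATAAA or TTTATA was found in Clec4g alone among the 7, against 5.56% of all promoters, and GGGCGG or CCGCCC in Mrc1 and Kdr, against 24.7%. Both strands were searched, and in these windows no copy of a motif shared a base with another motif. Promoter entries were not matched for Lyve1, Oit3 and Pecam1.

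All 10 markers were detected in all 4 livers, with values from 5.46 FPKM (Lyve1) to 71.8 FPKM (Clec4g). Clec4g had the highest mean, 64.2 FPKM ± 7.76 (SD, n = 4), which was above 86.2% of all listed genes. Fcgr2b followed with 49.2 ± 6.35 and Eng with 28.5 ± 4.22. Oit3 (20.2 ± 0.994), Mrc1 (19.9 ± 1.76) and Kdr (16.995 ± 1.95) formed the middle of the order. Stab2 (12.5 ± 1.48) and Stab1 (12.5 ± 2.28) stood close to the median of all genes, at percentiles of 52.9 and 52.7. Pecam1 (8.27 ± 1.01) and Lyve1 (7.70 ± 1.54) were lowest. Ranges over the mice overlapped between the neighbours Oit3 and Mrc1, Mrc1 and Kdr, Stab2 and Stab1, and Pecam1 and Lyve1, although Mrc1 was above Kdr within each of the 4 mice. The ranges of the other neighbours were apart. The spread between mice was smallest for Oit3, with a coefficient of variation of 4.93%, and largest for Lyve1, with 20.03%.

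**Figure D1:**
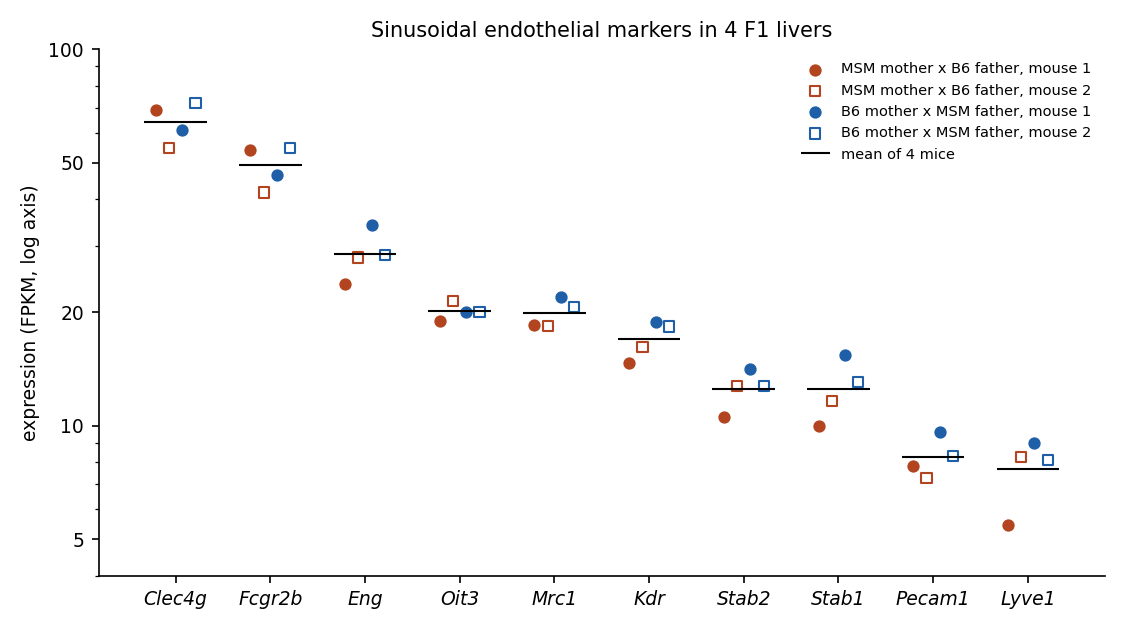
Expression of the 10 sinusoidal endothelial markers in FPKM (log axis) in each of the 4 livers, ordered by their mean (black line), with MSM/B6 mice in red and B6/MSM mice in blue. Clec4g lies between 54.8 and 71.8 FPKM and Lyve1 between 5.46 and 8.98, and replicate 1 of MSM/B6 is the lowest mouse for 6 of the 10 genes.

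The comparison of the reciprocal crosses asks whether the strain of the mother is associated with the level of these genes. In 6 of the 10 markers both B6/MSM livers were higher than both MSM/B6 livers, in 4 the crosses overlapped, and in 0 were both MSM/B6 livers higher. Over all 8797 genes, the B6/MSM livers were both higher in 19.4% and both lower in 23.0%. The difference was not significant for any marker after adjustment over all genes (limma), a test that called 4 genes, or 0.0455%. At an unadjusted p under 0.05, limma called 1 marker, Stab1, and 8.87% of all genes. With 1 mouse left out, this number was 3 without replicate 2 of MSM/B6 and 0 without any of the other mice, and 257 to 1631 of all genes. The smallest p that an exact permutation of 2 against 2 mice can give is 0.333. The estimates below are MSM/B6 minus B6/MSM on the log2(FPKM + 1) scale, so a negative value means a higher level in B6/MSM, and the scale slightly understates the change of low genes.

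Among the uptake receptors, Stab1 and Stab2 are large scavenger receptors that clear modified lipoproteins and, for Stab2, hyaluronan. The level of Stab1 was 10.004 and 11.6 FPKM in MSM/B6 replicates 1 and 2, and 15.4 and 13.1 in B6/MSM replicates 1 and 2. Both B6/MSM livers were thus above both MSM/B6 livers, and the means differed 1.32-fold. The estimate was -0.36 (SE 0.14), with an unadjusted p of 0.0370 and an adjusted p of 0.541 (limma). Stab2 had 10.5 and 12.7 FPKM in MSM/B6 and 14.1 and 12.8 in B6/MSM. The crosses barely separated, as replicate 2 of MSM/B6 and replicate 2 of B6/MSM were nearly equal, and the estimate was -0.20 (SE 0.13, adjusted p = 0.655).

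Mrc1 encodes the mannose receptor, which takes up glycoproteins and collagen fragments. Its level was 18.5 and 18.4 FPKM in MSM/B6 and 21.98 and 20.7 in B6/MSM. The pairs of mice were close within each cross and did not overlap, with an estimate of -0.20 (SE 0.11, adjusted p = 0.620). Lyve1 encodes a hyaluronan receptor. Its level was 5.46 and 8.26 FPKM in MSM/B6 and 8.98 and 8.11 in B6/MSM. Only replicate 1 of MSM/B6 was low, and the other 3 livers lay between 8.11 and 8.98, so the crosses overlapped. The estimate of -0.30 (SE 0.19, adjusted p = 0.634) became -0.04 without that mouse.

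Fcgr2b, the inhibitory IgG receptor that removes small immune complexes in the sinusoid, and Clec4g, a C-type lectin known as LSECtin, were the most abundant markers. Fcgr2b had 54.2 and 41.7 FPKM in MSM/B6 and 46.4 and 54.8 in B6/MSM. Clec4g had 69.1 and 54.8 FPKM in MSM/B6 and 61.0 and 71.8 in B6/MSM. In both genes replicate 1 of MSM/B6 and replicate 2 of B6/MSM were the higher mice and the others the lower, so the spread ran within each cross rather than between crosses. The estimates were -0.08 (SE 0.18, adjusted p = 0.884) for Fcgr2b and -0.10 (SE 0.17, adjusted p = 0.849) for Clec4g, and both changed sign when either MSM/B6 replicate 2 or B6/MSM replicate 2 was left out. Of all 50-base windows in the longest annotated transcript of Fcgr2b, 7.44% also occurred in another gene, most often in the related receptor gene Fcgr3 (4.96%). The reads were 150-bp pairs, and whether any pair could be placed at either gene was not tested. The other 9 markers shared 0 such windows.

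Oit3 had 19.01 and 21.4 FPKM in MSM/B6 and 20.1 in each of the B6/MSM livers. The B6/MSM values lay between those of MSM/B6, and the estimate was 0.01 (SE 0.12, adjusted p = 0.991). Pecam1, also known as CD31, holds endothelial cells together at their junctions. It had 7.84 and 7.27 FPKM in MSM/B6 and 9.64 and 8.31 in B6/MSM, and the crosses did not overlap. The estimate was -0.22 (SE 0.12, adjusted p = 0.619).

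Kdr encodes VEGFR2, the main signalling receptor for VEGF-A, and Eng encodes endoglin, a co-receptor for BMP9. Kdr had 14.7 and 16.2 FPKM in MSM/B6 and 18.8 and 18.4 in B6/MSM. The crosses were apart, with a 1.21-fold ratio of the means and an estimate of -0.26 (SE 0.11, unadjusted p = 0.0674, adjusted p = 0.578). Eng had 23.8 and 28.0 FPKM in MSM/B6 and 34.0 and 28.4 in B6/MSM. The replicates numbered 2 of both crosses were nearly equal and the difference came mostly from replicates 1, with an estimate of -0.26 (SE 0.15, adjusted p = 0.625).

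The median estimate was -0.21 for the 10 markers and 0.02 for all genes. The libraries differed in ways that moved with transcript length. The FPKM summed over listed genes was 671875 and 539647 in MSM/B6 and 529024 and 572780 in B6/MSM. When genes were divided into 5 groups of nearly equal size by their longest annotated transcript, the median deviation of replicate 1 of MSM/B6 from the mean of the 4 mice ran from 0.21 in the shortest group to -0.13 in the longest, on the log2 scale, and that of replicate 1 of B6/MSM from -0.14 to 0.06. Replicate 2 of MSM/B6 ran the opposite way, from -0.062 to 0.052, and replicate 2 of B6/MSM was nearly flat, at -0.0044 in the shortest and 0.0027 in the longest group. The median estimate of all genes accordingly ran from 0.15 to -0.07, and the share of genes in which both B6/MSM livers were higher ran from 8.83% to 26.6%. Stab1 (7999 bases), Stab2 (8228), Mrc1 (5374) and Kdr (5924) belong to the longest group, and all 4 were among the 6 separated markers. Pecam1 and Eng, the other 2, belong to the middle group, where the share was 21.8%. After each mouse was adjusted for transcript length, an alternative chosen after seeing the data, both B6/MSM livers were higher in 7 of 10 markers, with Clec4g added, and in 22.8% of 8434 genes with a known length. The adjusted estimate was -0.27 for Stab1 and -0.19 for Kdr, but -0.10 for Stab2 and -0.22 for Clec4g. With 1 mouse left out at a time, a gene separated in all 4 mice stays separated, so this count could not fall. The B6/MSM livers were then higher in 7 to 8 markers, against 27.2% to 36.9% of all genes. Without replicate 1 of MSM/B6, the remaining MSM/B6 liver was higher in 1 marker. The size of several estimates rested on single mice. Stab2 was -0.071 without replicate 1 and -0.32 without replicate 2 of MSM/B6, and -0.13 without replicate 1 of B6/MSM. Eng was -0.15 without replicate 1 of MSM/B6 and -0.13 without replicate 1 of B6/MSM, and Pecam1 was -0.12 without the latter. Lyve1 was -0.56 without replicate 2 of MSM/B6.

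**Figure D2:**
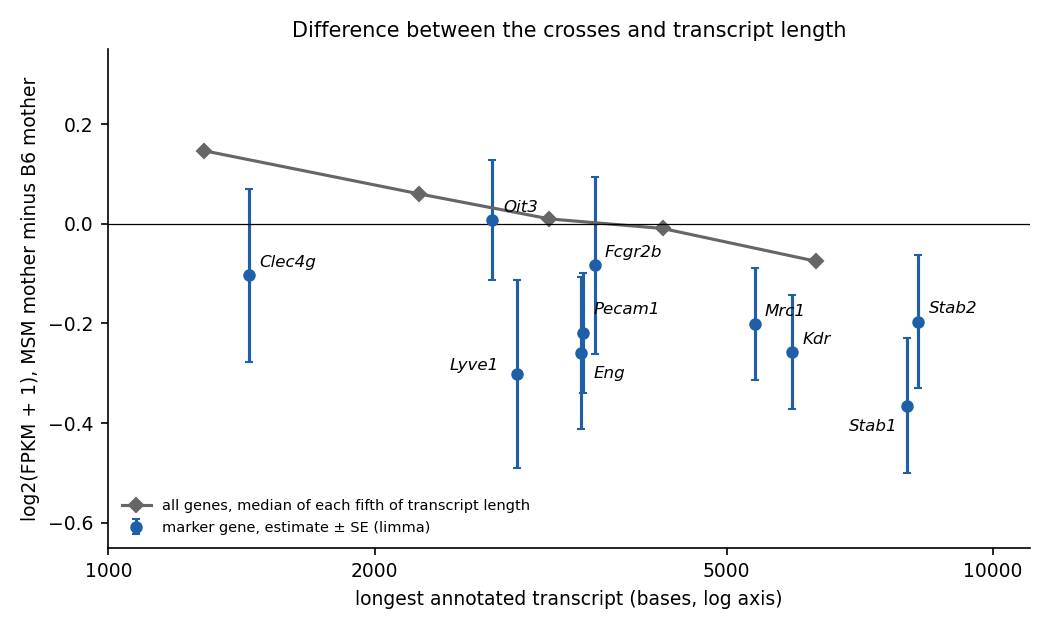
Difference in log2(FPKM + 1) between the crosses, MSM mother minus B6 mother, against the longest annotated transcript in bases (log axis) for the 10 markers (blue, estimate ± SE from limma), with the median of all genes in each of 5 length groups in grey. The grey line falls from 0.15 to -0.07, and 9 of the 10 markers lie below 0, Oit3 being the exception at 0.01.

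Genes around these markers were counted in lists that share some genes and all use the same 4 mice. Over all genes, both B6/MSM livers were higher in 19.4% and both lower in 23.0%. The first share ran from 8.83% to 26.6% with transcript length, and the list counts were not adjusted for length. Of 16 other genes enriched in sinusoidal endothelium, 12 were listed, and both B6/MSM livers were higher in 6, both MSM/B6 livers in 2. Its most abundant genes were Ctsl, a lysosomal protease also abundant in other cells, Fcna, a ficolin, and Cd36, a fatty acid receptor. Cd36 went the other way from the markers, with 46.4 and 33.9 FPKM in MSM/B6 and 26.0 and 25.7 in B6/MSM (estimate 0.60, SE 0.17, adjusted p = 0.463, limma), as did Ctsl (estimate 0.33, SE 0.17, adjusted p = 0.6005). Fcna overlapped between the crosses. Of 27 genes of endothelium in general, 19 were listed, and both B6/MSM livers were higher in 9 and both MSM/B6 livers in 0. The water channel Aqp1 was among the 9 (57.2 and 55.7 FPKM against 64.6 and 68.3), whereas Igfbp7 and Epas1, the gene of HIF-2α, overlapped. None of these genes was called after adjustment over all genes.

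Of 15 genes of the VEGF pathway, 9 were listed, Kdr among them. Both B6/MSM livers were higher in 8 of these, against 19.4% of all genes. The ligand Vegfa had 25.2 and 26.1 FPKM in MSM/B6 and 29.7 and 31.0 in B6/MSM, and the co-receptor Nrp1 had 22.3 and 19.5 against 24.8 and 25.2. Their estimates, -0.24 (SE 0.12) for Vegfa and -0.25 (SE 0.12) for Nrp1, were close to the -0.26 of Kdr, and each had an adjusted p of 0.592. The ligand Vegfb, named after its values were seen, had the largest estimate of the list at -0.90 (SE 0.13, adjusted p = 0.252). Of 23 BMP and TGF-beta genes, 18 were listed, Eng among them. Both B6/MSM livers were higher in 13 and both MSM/B6 livers in 1, against 19.4% and 23.0% of all genes. The most abundant besides Eng were Id2 and Id3, which are induced by BMP signalling in many cells. Id3 had 39.4 and 26.8 FPKM in MSM/B6 and 55.4 and 54.5 in B6/MSM (estimate -0.74, SE 0.20, adjusted p = 0.443). In Id2 a single mouse was low, with 36.6 FPKM in replicate 2 of MSM/B6 against 90.0 to 102 in the other 3. Of 8 signals sent by liver endothelium, 6 were listed, and they divided into 2 with the B6/MSM livers higher, 2 with the MSM/B6 livers higher and 2 that overlapped. No gene of these lists was called after adjustment.

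Markers of other liver cells were compared between the crosses in the same way. Of 16 Kupffer cell and macrophage markers, 14 were listed, none at 0 in any mouse. Both B6/MSM livers were higher in 10 and both MSM/B6 livers in 0, against 19.4% and 23.0% of all genes. The median estimate of the list was -0.32. The summed level of the macrophage markers was 372 to 424 FPKM in MSM/B6 and 436 to 488 in B6/MSM. That of the 10 sinusoidal markers was 220 to 233 and 250 to 256. The sum of the 12 other sinusoidal genes ran the other way, with 568 to 664 in MSM/B6 and 505 to 534 in B6/MSM. Ctsl made up 407 to 470 and 333 to 365 FPKM of it. Cd5l, a secreted macrophage protein, had 37.1 and 35.3 FPKM in MSM/B6 and 59.6 and 43.8 in B6/MSM, and C1qb, a subunit of complement C1q, had 46.8 and 34.7 against 53.4 and 47.8. The iron exporter Slc40a1, the most abundant of the list, overlapped. Of 4 listed red blood cell genes, both B6/MSM livers were higher in 2, and their sum was 128 to 308 FPKM in MSM/B6 and 449 to 769 in B6/MSM. Of 10 listed hepatocyte genes, both MSM/B6 livers were higher in 5 and both B6/MSM livers in 1, Cyp2e1, the only gene of any list called in expression and one listed at 0 FPKM in both MSM/B6 livers. Those same livers had B6-allele frequencies of 0.516 and 0.546 for Cyp2e1, so reads of the gene were assigned there, and the listed 0 cannot be read as absent expression. Of 8 listed stellate cell genes, the B6/MSM livers were higher in 2 and the MSM/B6 livers in 1. The lymphatic genes Prox1, which hepatocytes also express, and Flt4 were both higher in both B6/MSM livers, while Pdpn, Ccl21a and Mmrn1 were not among the listed genes. Only 2 of 6 bile duct genes were listed, with the MSM/B6 livers higher in 1, and 0 of 9 lymphocyte genes. The part of macrophages, blood and other cells in the values of the sinusoidal markers was not tested.

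**Figure D3:**
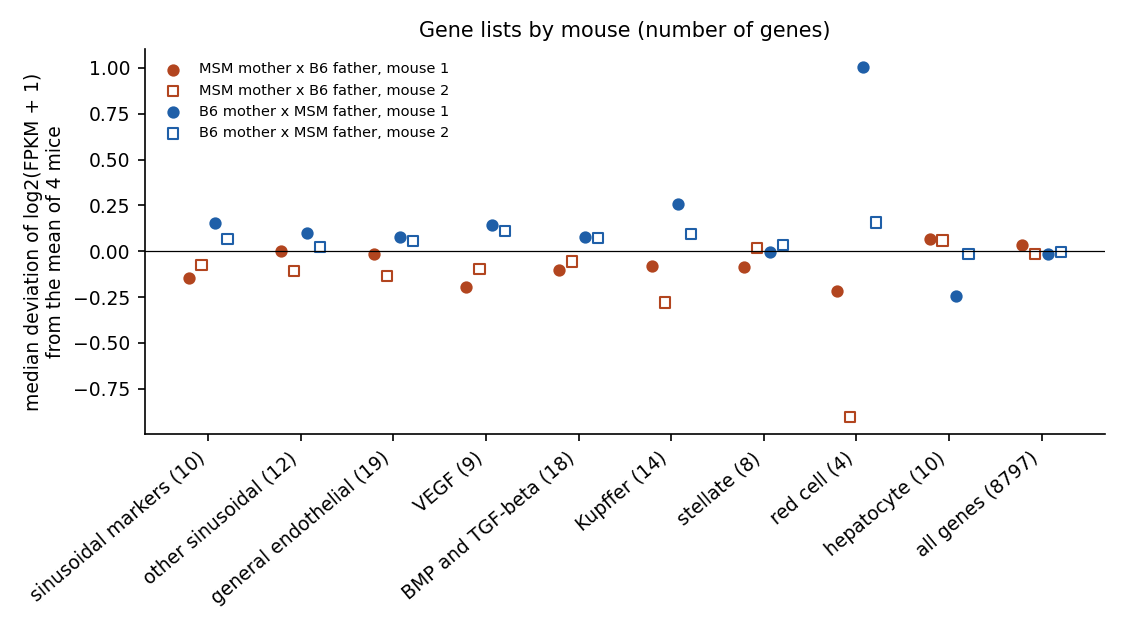
Median deviation of log2(FPKM + 1) from the mean of the 4 mice for each gene list in each mouse, with the number of listed genes in parentheses, MSM/B6 mice in red and B6/MSM mice in blue. The sinusoidal markers lie at -0.15 and -0.07 in MSM/B6 and at 0.16 and 0.07 in B6/MSM. The other sinusoidal, general endothelial, VEGF, BMP and TGF-beta, Kupffer and red cell lists have the same order of crosses. The hepatocyte list has the opposite order, and the crosses overlap in the stellate list. The median of all genes stays between -0.02 and 0.03.

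The B6-allele frequency addresses whether the B6 and MSM copies of a gene were used equally within the same liver. It was given for Lyve1 and Pecam1 and for none of the other 8 markers. Whether a gene had a frequency followed its position in the genome. Beyond coordinate 100 Mb of a chromosome (10 Mb on chromosomes 16 to 19), 89.8% of 3766 genes had a frequency, and below it 1.97% of 4668. Lyve1, Fcgr2b and Pecam1 lie beyond it and the other 7 markers below. Fcgr2b thus had no frequency despite its position, and the reason is not known. A missing frequency says nothing about whether the alleles of a marker differ. The number of reads behind each value was not among the values used here, so no interval can be set on a single frequency.

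Lyve1 (chr7:110850607-110863239, minus strand) used the MSM allele more. Its B6-allele frequency was 0.266 and 0.330 in MSM/B6 and 0.254 and 0.270 in B6/MSM, with a mean of 0.280 ± 0.0342 (SD, n = 4). All 4 mice were below 0.5, and the crosses overlapped. The values correspond to 2.03 to 2.94 MSM reads for each B6 read. The log2 odds of the B6 allele were -1.37 (SE 0.10), with an adjusted p of 0.00619 for the difference from equal use (limma over 3632 genes). The mean did not reach the limit of 0.2 that the authors set for an MSM-biased gene. A mean frequency as low as or lower than that of Lyve1 was seen in 83 genes, or 2.29% of those with a frequency.

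Pecam1 (chr11:106654217-106750628, minus strand) used the B6 allele slightly more. Its frequency was 0.540 and 0.563 in MSM/B6 and 0.541 and 0.550 in B6/MSM, with a mean of 0.549 ± 0.0110 (SD, n = 4). All 4 mice were above 0.5 and within 0.03 of one another. The log2 odds were 0.28 (SE 0.05, adjusted p = 0.0296, limma), and 26.9% of the genes had a mean frequency as high or higher. With a block by replicate number Pecam1 was not called (adjusted p = 0.0687, limma). The spread between mice was small beside the median SD of 0.0272 over all genes. The median of the mean frequency over all genes was 0.510. Pecam1 lost its call when any single mouse was left out (adjusted p 0.0795 to 0.145), and Lyve1 when either B6/MSM mouse was left out (0.0614 and 0.0607), whereas the frequencies themselves stayed on the same side of 0.5 in every mouse.

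Of the 2 markers tested, 1 was thus called toward the MSM allele and 1 toward the B6 allele, and among all 3632 genes 13.6% were called toward MSM and 22.6% toward B6. A difference between the reciprocal crosses, as an effect of the parent of origin would give, was not detected for either. The cross term, MSM/B6 minus B6/MSM in log2 odds, was 0.25 (SE 0.20, unadjusted p = 0.278, adjusted p = 0.901, limma) for Lyve1 and 0.04 (SE 0.10, unadjusted p = 0.743, adjusted p = 0.968) for Pecam1. The same test called 0.0826% of all genes after adjustment and 5.23% at an unadjusted p under 0.05, and called 0 markers in either way.

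Over all 3632 genes with a frequency, 22.6% were called toward B6 and 13.6% toward MSM, and no list below was tested against these shares. Of the 13 other sinusoidal or general endothelial genes with a frequency, 6 were called unequal. The mean frequencies of all 13, called or not, ran from 0.406 to 0.614. In the list of other sinusoidal genes, Maf, a transcription factor of these cells, had a mean frequency of 0.582 ± 0.0276 (adjusted p = 0.0124, limma) and Ehd3, an endocytic protein, 0.549 ± 0.0169 (adjusted p = 0.0304), and the other 2 were not called. Among 9 genes of endothelium in general, Emcn (0.589), Ptprb (0.548) and the sphingosine receptor S1pr1 (0.580) were called toward B6, Epas1 (0.406 ± 0.00786, adjusted p = 0.00804) toward MSM, and 5 were not called. In the VEGF list Vegfa (0.552) and Plcg1 (0.640) were called toward B6 and Nrp1 (0.396 ± 0.0177, adjusted p = 0.00916) toward MSM, and in the BMP and TGF-beta list 0 of 5 were called. Of 4 macrophage genes with a frequency, 3 were called, all toward B6. Lyz2, lysozyme, had 0.889 ± 0.0266 (adjusted p = 0.0052) and Folr2 0.864 ± 0.0794 (adjusted p = 0.0128), both above the limit of 0.8 for a B6-biased gene, whereas Csf1r had 0.581 and Cd163, which was not called, 0.509 (adjusted p = 0.747).

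**Figure D4:**
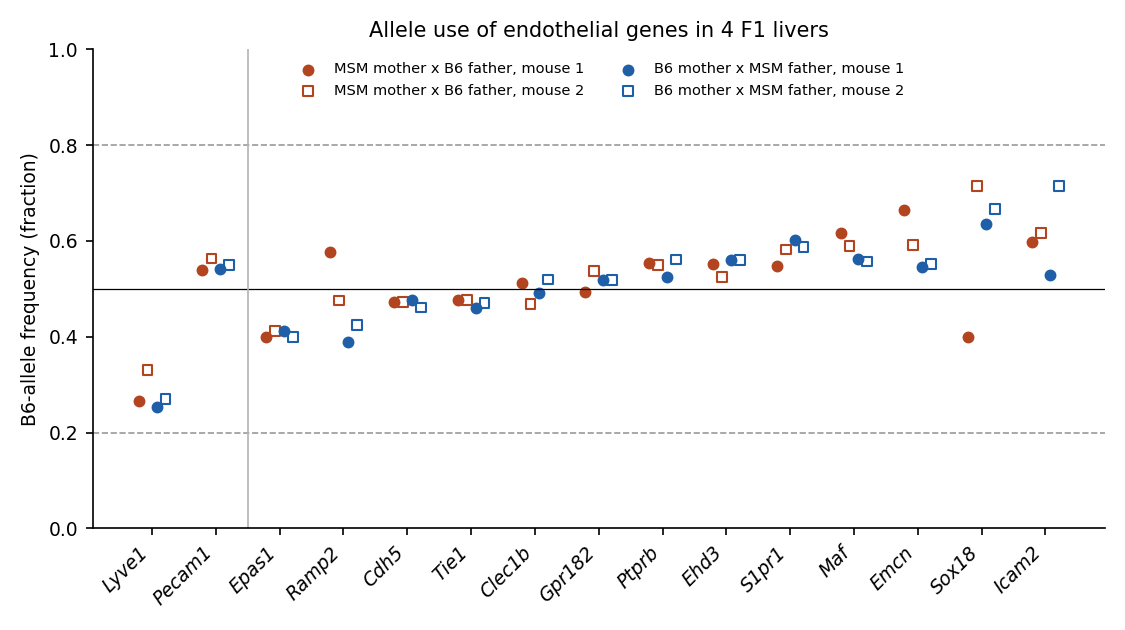
B6-allele frequency (fraction) in each of the 4 mice for Lyve1 and Pecam1, left of the vertical line, and for the 13 other sinusoidal or general endothelial genes with a frequency, ordered by mean. The solid line marks equal use at 0.5 and the dashed lines the limits of 0.8 and 0.2, and Lyve1 is the lowest gene, between 0.254 and 0.330.

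The frequencies of neighbouring genes were set beside both markers. Within 2 Mb on each side of Lyve1, 18 other genes had a frequency, with means from 0.377 to 0.671 and a median of 0.488, and all 18 were higher than Lyve1. The lowest of them, Rnf141, was also the nearest on the side of lower coordinates, with 0.308 and 0.339 in MSM/B6 and 0.465 and 0.397 in B6/MSM. Tmem41b, at 0.671, was the highest, so values on both sides of 0.5 were found in the region. Within 2 Mb of Pecam1, 24 other genes had a frequency, of which 19 were lower and 5 higher, with a median of 0.501 and a range from 0.446 (Ftsj3) to 0.923 (Limd2). These neighbours were chosen by position, and no test was made of their difference from the markers.

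**Figure D5:**
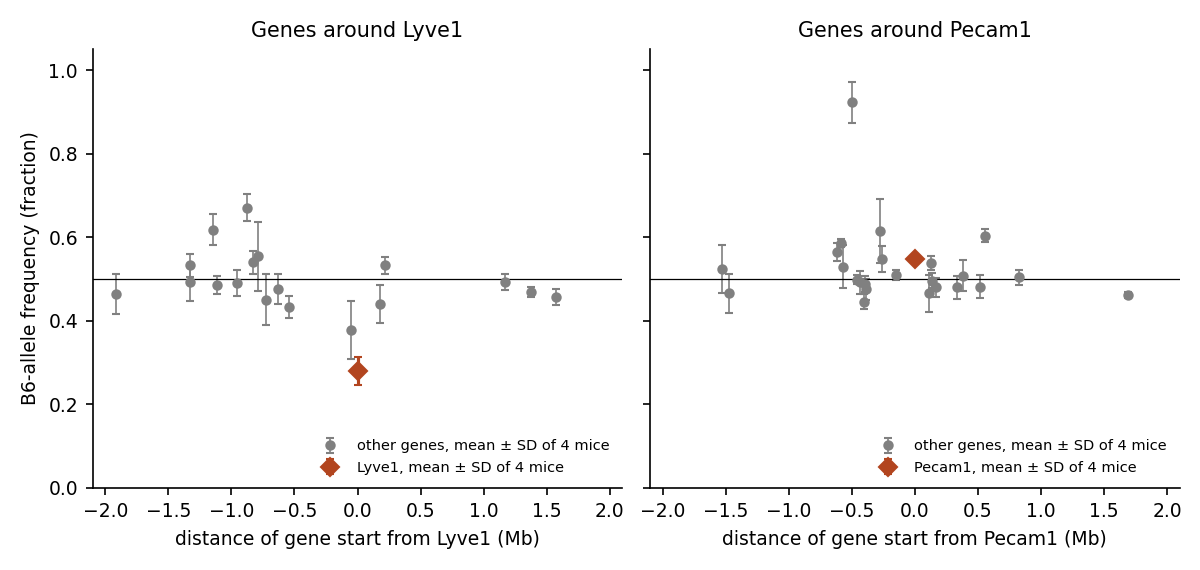
Mean B6-allele frequency (fraction) ± SD over the 4 mice of Lyve1 and Pecam1 (red) and of the other genes with a frequency within 2 Mb (grey), against the distance of the gene start from that of the marker in Mb. Lyve1, at 0.280, lies below all 18 neighbours, and Pecam1, at 0.549, lies among its 24.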

How the data were processed

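Poly(A) RNA of 4 livers was sequenced in strand-specific 150-bp read pairs. After trimming (Trim Galore!), the authors mapped the reads with TopHat2 onto mm10 with strain-variable bases masked, and deposited the expression of each gene in FPKM. The authors then assigned reads to alleles with SNPsplit, counted them per gene and deposited the fraction from the B6 allele for genes with over 10 such reads. Tool versions and the gene annotation are not given in the sources used here. No counts were used, so the depth behind each value is unknown.

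The members and gene lists were chosen with earlier results of these data known. All members are named. Of the other lists, genes are named that passed a test, or else the 3 with the highest mean FPKM, and other named genes were chosen after their values were seen. Groups came from the parents given in the labels. Expression was tested on log2(FPKM + 1) with limma 3.58.1 (variance trend) in R 4.3.3 over all 8797 genes, which all passed a minimum mean of 1 FPKM. Allele use was tested on log2 odds limited to 0.01 to 0.99, the mean of the crosses against 0 and the cross term, over 3632 genes. Tests were 2-sided with Benjamini-Hochberg adjustment over all genes at 0.05. They were also run on simulated data, but with shifts larger than any estimate of the markers. Those runs therefore do not show how effects of the size seen here would be called. Positions and lengths came from GENCODE M21 for 8434 genes. Python 3.11.15, numpy 2.4.6, pandas 2.3.3, scipy 1.17.1 and matplotlib 3.10.9 were used. Alternatives were other pseudocounts, filters, scalings and limits, a block by replicate number, and leaving out 1 mouse at a time.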

Additional observations from a re-analysis of the deposited data

How the results depend on the processing

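With 2 mice per cross, and no counts behind the FPKM or the frequencies, only changes far above the spread between mice could be called. For expression, 120 values of the 10 markers were computed under alternatives, of which 108 were negative and none was called (adjusted p 0.232 to 1, limma), and 8 changed sign. These were Clec4g (-0.27 to 0.061 with 1 mouse left out), Fcgr2b (-0.27 to 0.10) and Oit3 (-0.075 to 0.090, and -0.019 with median-centred mice, -0.021 with quantile normalization and -0.020 after adjustment for transcript length). No listed gene had a mean under 2.50 FPKM, so the filter at 1 FPKM removed none. Mice with equal replicate numbers had nearly uncorrelated deviations from their cross means (correlation 0.00375). That single value cannot settle whether the replicate number paired the mice. With the number as a replicate block, the genes called in expression rose from 4 to 285, those called in imbalance fell from 1316 to 775, and the markers called in imbalance from 2 to 1, as the adjusted p of Pecam1 became 0.0687. With 1 mouse left out, 13 to 21 genes were called in expression, 181 to 514 in imbalance, 0 to 6 in frequency between the crosses and 0 to 1 markers in imbalance. The cause of these changes was not tested, beyond the smaller number of mice. With frequencies limited at 0.001 from 0 and from 1, the genes called in frequency between the crosses went from 3 to 1. The cross term of Pecam1 ran from -0.033 to 0.10 with 1 mouse left out. Otherwise Lyve1 kept its imbalance call with all 4 mice (adjusted p 0.00321 to 0.0278).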
